A study of Homo sapiens with 5 samples.

Results

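Of the 21113 TEAD4 peaks listed for LX-2 cells, 4415 (20.9%) held at least 1 AP-1 word and no TEAD core near their summit. The AP-1 word was TGACTCA or TGAGTCA, which are reverse complements of each other, and the TEAD core was ACATTCC on either strand. Both were searched within 100 bp of the summit, the position of highest signal in a peak, on hg38. Another 3901 peaks held the TEAD core without AP-1, 948 held both and 11849 held neither. LX-2 is a line of human hepatic stellate cells, the liver cells that turn into scar-forming myofibroblasts. The cells received DMSO, the solvent control, in all 3 TEAD4 ChIP-seq samples and both input samples, so no treatment was compared here. Replicate 2 had been left out upstream as not concordant. The list rests on replicates 1 and 3 together, so each peak has 1 value and no replicate error. One cell line is a limited model of stellate cells in tissue, and a peak list holds no expression with which to check the cell type.

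AP-1 is a dimer of FOS and JUN family bZIP proteins that binds the short palindromic TPA-response element and switches genes on after growth factor, cytokine and stress signals. TEAD factors bind their own core through a TEA domain and recruit the coactivators YAP and TAZ, mostly at distal enhancers. Both families are known to share many enhancers, so a TEAD4 peak can hold an AP-1 word with or without a TEAD core.

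The strongest of these peaks are shown for their sequence and are not typical of the rest. The windows below are the summit base with 100 bp on either side (hg38, plus strand) for the 4 strongest outside UTRs. Capitals mark the AP-1 word and the TEAD-core variants GCATTCC and AAATTCC, each 1 base from the core, or their reverse complements. Those variants were picked after their values were seen, as the ones most frequent relative to flanking sequence.
AXL intron, chr19:41223530-41223730: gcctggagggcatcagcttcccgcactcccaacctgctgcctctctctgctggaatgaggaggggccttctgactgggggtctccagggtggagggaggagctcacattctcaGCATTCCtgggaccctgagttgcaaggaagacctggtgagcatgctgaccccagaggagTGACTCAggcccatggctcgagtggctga
SLC25A26 region, chr3:66115923-66116123: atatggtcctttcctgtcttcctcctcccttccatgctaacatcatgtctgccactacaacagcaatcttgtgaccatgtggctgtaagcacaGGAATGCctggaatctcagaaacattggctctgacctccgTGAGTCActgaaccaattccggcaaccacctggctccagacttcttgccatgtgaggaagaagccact
ROBO2 intron, chr3:76497759-76497959: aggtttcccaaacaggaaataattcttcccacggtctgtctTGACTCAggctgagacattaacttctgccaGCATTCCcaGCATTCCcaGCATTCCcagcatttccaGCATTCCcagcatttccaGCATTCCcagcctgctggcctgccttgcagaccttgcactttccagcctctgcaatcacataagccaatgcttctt
MYEOV region, chr11:69420587-69420787: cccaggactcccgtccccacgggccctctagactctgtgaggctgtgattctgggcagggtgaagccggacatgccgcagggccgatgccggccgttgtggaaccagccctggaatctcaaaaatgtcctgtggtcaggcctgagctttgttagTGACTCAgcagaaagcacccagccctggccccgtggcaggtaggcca
In 3 of the 4 windows the variant GCATTCC was present, and in the ROBO2 window it recurred in tandem. Over all 4415 peaks GCATTCC was present in 16.6%, and 67.0% held neither variant. The MYEOV window held neither variant in capitals. The AP-1 word lay 75 bp from the summit at AXL, 36 bp at SLC25A26, 56 bp at ROBO2 and 57 bp at MYEOV.

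Shorter stretches show the AP-1 word itself, with 10 bases on either side (hg38, plus strand, AP-1 in capitals), in a peak with adjoining AP-1 copies and in peaks near genes described further on.
LDLRAD3 intron, chr11:36149886-36149912: tcaTGACTCATGACTCAtgaatgtggc
PLCB4 region, chr20:9051721-9051747: caaaggtttaTGACTCAtagaaaatct
COL1A1 region, chr17:50218904-50218930: ctgggtctggTGACTCAtgcctgaaat
FOSB region, in an ERCC1 intron, chr19:45455884-45455910: ttcaggagccTGAGTCAccctgggaga
CXCL8 region, chr4:73726197-73726223: gattttatacTGAGTCAcctctctgga
In the LDLRAD3 intron adjoining copies made a run of AP-1 words, part of 4 matches in that window, and the PLCB4 window also held 4.

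AP-1 words gathered at the summits of these peaks. The middle base of the nearest AP-1 word lay a median of 31 bp from the summit (interquartile range 13 to 55). In peaks with both motifs the median was 34 bp. Since the rule demands a match inside the window, the fall with distance is a description. Over all 21113 peaks, where no motif was demanded, AP-1 matches fell from 2.35 per 1000 peaks per bp at 0 to 9 bp to 0.658 at 90 to 99 bp, against 0.199 in the centre of windows 2 kb upstream. AP-1 lay within 20 bp of the summit in 36.0% of the AP-1 peaks without TEAD core and in 33.1% of peaks with both motifs, an odds ratio of 1.14 (n = 4415 and 948 peaks, 95% interval 0.977 to 1.32, adjusted p = 0.143). The odds ratios here come from logistic regression across peaks with errors clustered by 1 Mb bin, adjusted over 20 tests, and speak of peaks of 1 list, which are not replicates.

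**Figure D1:**
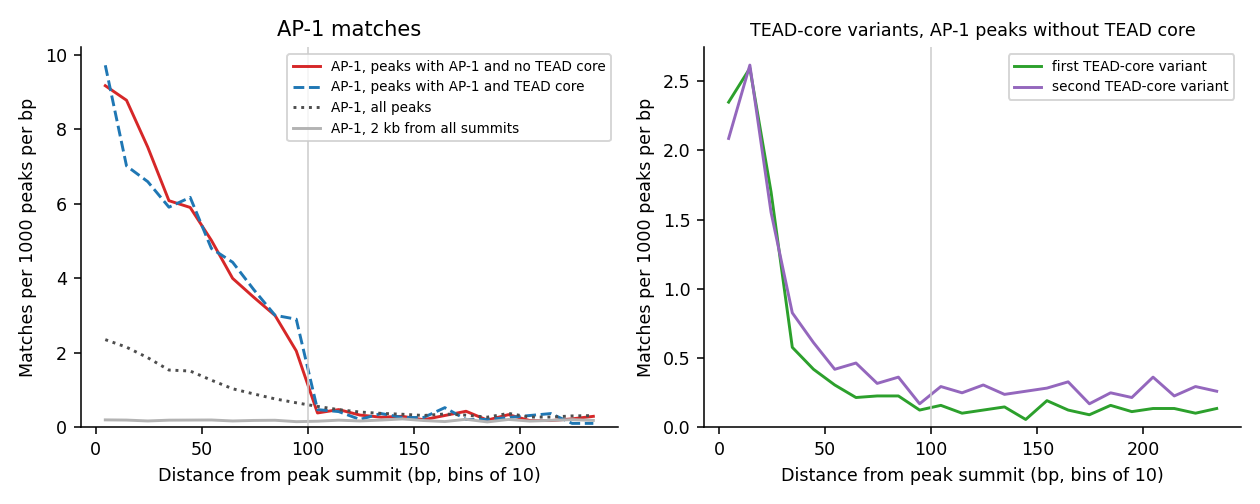
Matches per 1000 peaks per bp against distance from the summit in bins of 10 bp; the grey vertical line marks the 100 bp limit of the search. Left, AP-1 words in the AP-1 peaks without TEAD core, in peaks with both motifs, in all peaks and 2 kb upstream of all summits. Right, the variants GCATTCC (first) and AAATTCC (second) in the AP-1 peaks without TEAD core, both concentrated within about 30 bp of the summit.

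Most peaks held a single AP-1 word. There were 4051 with 1 match, 341 with 2, 21 with 3 and 2 with 4, or 4804 matches in all. Peaks with 2 or more made up 8.24% here and 7.07% of peaks with both motifs (n = 4415 and 948 peaks, odds ratio 1.18, 95% interval 0.898 to 1.55, adjusted p = 0.274). The median signal value, the peak caller's measure of enrichment, was 68.1 with 1 match, 75.7 with 2 and 85.0 with 3 or 4, the last over 23 peaks. The interquartile ranges overlapped widely, at 48.0 to 110.1 with 1 match and 48.9 to 123.5 with 2. Just inside the limit, 187 peaks had their nearest AP-1 middle at 88 to 97 bp and a median signal of 72.8. Just outside, 167 peaks had it at 98 to 107 bp and a median of 69.1. Of the AP-1 peaks, 12 had a TEAD core in the first 10 bp outside the window. In a wider band outside the window, 226 of the 4415 (5.12%) had one, against 7.11% of the 11849 peaks with neither motif. This difference was not tested. The class name therefore refers to the search window and not to the whole peak.

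The bases around the AP-1 word differed from those around AP-1 words in the flanking sequence of all peaks of the list. Read as TGAGTCA, 34.3% of 4732 matches had A before the word, compared with 24.6% of 3807 matches in flanks, and 36.0% had T after it, compared with 23.1%. T before the word was found in 486 of the 4732 matches against 762 of the 3807, and A after it in 8.94% against 23.0%. The 9-base word ATGAGTCAT made up 11.9% of matches against 5.75% in flanks. A 9-base word of this kind, ATGACTCAT or ATGAGTCAT, was present in 12.5% of the peaks and in 11.1% of peaks with both motifs (n = 4415 and 948 peaks, odds ratio 1.15, 95% interval 0.929 to 1.43, adjusted p = 0.245). GCTGAGTCA was less frequent than in peaks with both motifs, at 8.70% against 11.2% (n = 4415 and 948 peaks, odds ratio 0.757, 95% interval 0.602 to 0.951, adjusted p = 0.0281). That call was lost with a window of 50 bp or 200 bp, among peaks of the highest score and with a 6-base core.

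Most of these peaks held a near miss of the TEAD core. A word 1 base from ACATTCC was found in 71.9% (95% Wilson interval 70.5 to 73.2), against 41.6% of their own flanks without the core and 73.8% of peaks with neither motif. The odds against peaks with neither motif were slightly lower (n = 4415 and 11849 peaks, odds ratio 0.908, 95% interval 0.841 to 0.981, adjusted p = 0.028). That call was lost among peaks of the highest score (n = 3400 AP-1 peaks, 0.909, adjusted p = 0.0605). GCATTCC had the highest ratio to flanks, at 16.6% of the peaks against 2.39% of flanks, and was more common still, at 22.3%, in peaks with neither motif. AAATTCC was at 17.6% against 3.95% of flanks, AGATTCC at 6.70% against 2.16%, and TCATTCC at 8.24% against 3.23%. In 40 peaks an AP-1 word itself ran on into TCATTCC, so part of that share uses letters that the rule demands. Of the 21 variants, 4 were below their share in flanks. The flank comparisons were not tested.

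The variants sat nearer to the summit than AP-1 did. In the 731 peaks with GCATTCC, its middle lay a median of 16 bp from the summit, while AP-1 in the same peaks lay 35 bp away, and GCATTCC was the nearer in 68.9% (95% interval 65.5 to 72.2). In the 775 with AAATTCC the medians were 19 bp and 32 bp, and the variant was nearer in 59.4%. In flanking windows the medians were 49 and 51 bp from the centre. In peaks with both motifs the exact TEAD core lay a median of 17 bp from the summit and AP-1 34 bp.

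Peaks with either variant had the higher signal. Their median was 84.5 over 1456 peaks, against 62.7 over the 2959 peaks with neither variant, and 62.8% against 44.4% exceeded the list median of 68.1. Peaks with both an AP-1 word and the exact core had a median of 90.5. With the AP-1 peaks without TEAD core ranked by signal in 5 bins of 883, either variant was present in 19.1% of the lowest bin, then 27.9%, 31.3%, 34.9% and 51.8% of the highest. The AP-1 distance hardly moved over those bins, with medians from 29 to 34 bp. These splits followed from the values seen and carry no test.

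In signal, AP-1 peaks without TEAD core lay below peaks with the core. Their signal values ran from 6.59 to 824.1 with a median of 68.6 (interquartile range 48.1 to 111.6). The medians were 80.4 with the core alone, 90.5 with both motifs and 62.9 with neither. The signal exceeded the list median in 50.5% of them, in 59.4% of peaks with the core alone (n = 3901, odds ratio 0.696, 95% interval 0.638 to 0.759, adjusted p = 1.4e-15) and in 65.9% of peaks with both (0.527, 0.456 to 0.611, adjusted p = 7.53e-17). Against 45.4% of peaks with neither motif the odds were higher (n = 11849, 1.23, 1.14 to 1.32, adjusted p = 5.75e-08). That last difference was lost when 1 peak was kept per group of overlapping peaks (n = 4281 AP-1 peaks, odds ratio 1.05, adjusted p = 0.266). Peaks with neither motif overlapped another peak in 19.8% of cases and then had a median of 36.6, against 67.6 where they overlapped none, while 11.1% of the AP-1 peaks without TEAD core overlapped another.

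**Figure D2:**
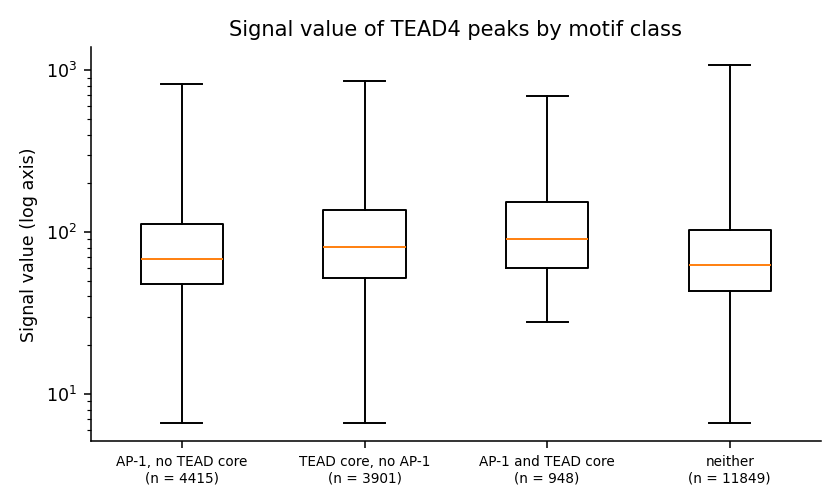
Signal value (log axis) of the peaks in each motif class; boxes span the quartiles, the line is the median and whiskers reach the lowest and highest peak. The AP-1 peaks without TEAD core have a median of 68.6, below the 80.4 and 90.5 of the classes with the core.

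The AP-1 peaks without TEAD core lay away from gene starts. A transcription start site (TSS) was within 2.5 kb of 18.9% of them, against 27.0% with the core alone (n = 3901, odds ratio 0.630, 95% interval 0.567 to 0.699, adjusted p = 3.73e-17) and 27.5% with neither motif (0.614, 0.562 to 0.671, adjusted p = 7.52e-26). Peaks with both motifs stood at 17.8%, with no difference detected (n = 948, 1.07, 0.888 to 1.29, adjusted p = 0.495). Of the AP-1 peaks without TEAD core 49.2% were in introns of coding genes, 32.1% were intergenic and 14.5% lay in lncRNA genes only, while 2.49% were in UTRs and 1.63% in other exons. Their median signal was 68.8 within 2.5 kb of a TSS and 68.5 elsewhere.

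Other motifs were compared in the same windows. The RUNX word TGTGGTT was in 7.79% of these peaks and 3.62% of their flanks. It was less frequent than in peaks with neither motif (n = 11849, 10.5%, odds ratio 0.718, 95% interval 0.634 to 0.813, adjusted p = 5.32e-07) or with the core alone (9.28%, 0.826, 0.708 to 0.964, adjusted p = 0.028), the latter lost with a window of 50 bp or a 6-base core. Peaks with both motifs held it in 6.22% (n = 948, 1.27, 0.955 to 1.70, adjusted p = 0.143). The E-box word CAGATG was in 18.4%, above 16.0% with neither motif (n = 11849, 1.19, 1.09 to 1.30, adjusted p = 0.000415) and 16.2% with the core alone (1.17, 1.04 to 1.31, adjusted p = 0.0216), with 19.7% where both motifs were present (0.917, 0.768 to 1.10, adjusted p = 0.379). In 99 of the 812 peaks the E-box word existed only as an overlap with AP-1 letters, and without overlapping words the share was 16.1% and the odds ratios were 1.01 and 0.998. Both calls were also lost among peaks over 2.5 kb from a TSS, at 1.09 and 1.12. The SP1 and KLF word GGGGCGG was in 1.47% here, 1.46% of their flanks and 0.949% with both motifs. It was in 4.64% with the core alone and 5.77% with neither motif. The ETS word CCGGAAG was in 1.13% here, 0.747% of flanks and 1.05% with both motifs. Its share was 2.18% with the core alone and 2.53% with neither motif. The shares of these 2 words were not tested. The word CCTTACA, the TEAD core written backwards, was in 1.83% of peaks and 1.94% of their flanks.

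Another peak with the TEAD core had its summit within 10 kb in 12.2% of the AP-1 peaks without TEAD core, against 15.2% of peaks with neither motif (n = 11849, odds ratio 0.775, 95% interval 0.698 to 0.860, adjusted p = 4.41e-06). Peaks that overlap each other were counted as other peaks here. The difference was lost when 1 peak was kept per overlapping group (n = 4281 AP-1 peaks, 0.904, adjusted p = 0.118). Against the classes with the core it was 13.5% (n = 3901, 0.890, 0.764 to 1.04, adjusted p = 0.184) and 11.5% (n = 948, 1.07, 0.850 to 1.34, adjusted p = 0.581). Both comparisons depended on the search window. At 200 bp the odds ratios were 0.542 and 0.647, both past the threshold and the latter turned in direction, and at 50 bp the comparison with the core alone also passed it (0.798). The nearest other AP-1 peak without TEAD core was a median of 100708 bp away.

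**Figure D3:**
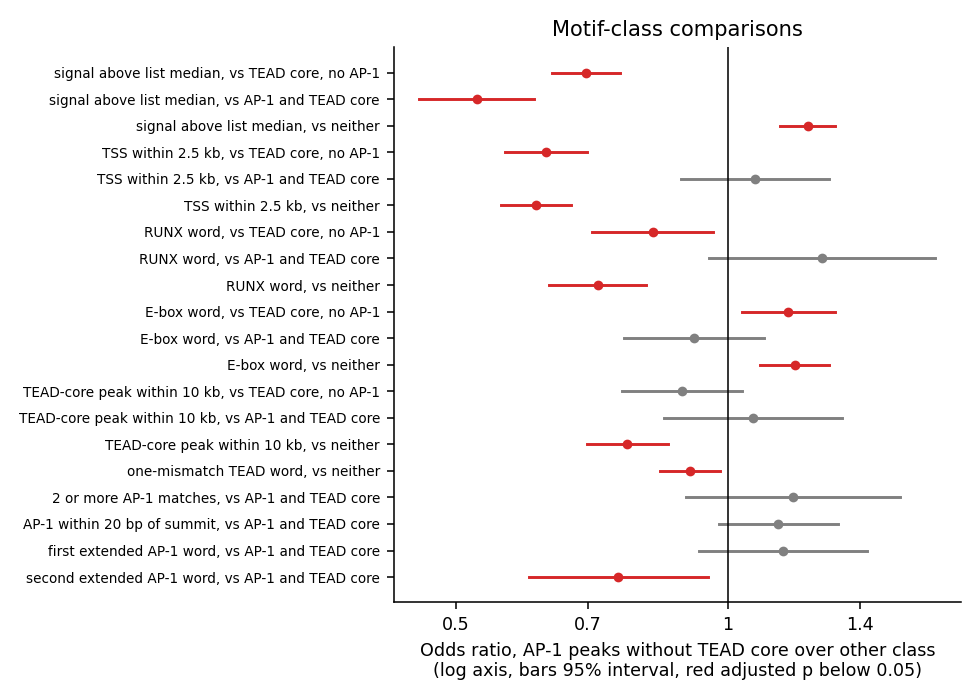
Odds ratios (log axis) of the AP-1 peaks without TEAD core over each other class for the 20 tests, with 95% intervals; red marks an adjusted p below 0.05. The first extended AP-1 word is ATGACTCAT or ATGAGTCAT and the second GCTGAGTCA. Signal is below 1 against both classes with the core, and TSS proximity is below 1 against the core alone and neither motif.

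Among single regions, the strongest of these peaks lay at CDH1, the epithelial cadherin gene, in a UTR (chr16:68823310-68823825), with a signal value of 824.1, at rank 5 of the whole list. The next was in an intron of AXL, a receptor tyrosine kinase gene and YAP target, at 774.2 (chr19:41223378-41223876). Then came the SLC25A26 region at 748.2 and an intron of ROBO2, an axon guidance receptor, at 747.1. An intergenic peak followed at 713.5, with its nearest coding TSS, that of MYEOV, 124879 bp away. The C8orf58 and PDLIM2 region was at 653.3 and ANXA2, a membrane-binding annexin, at 643.8. Introns of TTC33 and VAC14 were at 630.1 and 629.7, and the DDHD1 region at 615.6. All 10 held a word 1 base from the TEAD core, as did 71.9% of all these peaks and 80.1% of the 883 with the highest signal. The 5 peaks richest in AP-1 were picked with ties broken by higher signal, and 21 peaks tied at 3 matches. Their signal is therefore not typical, as the median was 85.0 over the 23 peaks with 3 or 4 matches. Of the 5 picked, those in introns of LDLRAD3 and IL7R had signal values of 171.3 and 332.4. The others were intergenic and are named by the nearest coding TSS. They were 192.4 for PLCB4 (15949 bp away), 186.1 for CAPN13 (67228 bp) and 177.8 for FKBP1A (22863 bp). The lowest signal, 6.59, was in an intron of LASP1.

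Near genes, 3963 of 20007 protein-coding genes (19.8%) had such a peak within 50 kb of a TSS, and 2.92% within 2.5 kb. Of those 3963 genes, 2456 had no peak with the TEAD core within 50 kb. Over all 20007 coding genes, only 4670 (23.3%) had a peak with the TEAD core within 50 kb. The gene lists are described by counts beside these shares and were not tested. Of all coding genes, 55.3% had a peak of any class within 50 kb, and 35.8% of these had an AP-1 peak without TEAD core.

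AP-1's own subunit genes had such a peak at 5 of 12, and all 12 had a peak of some class. The share of 41.7% compares with 35.8% of all coding genes with any peak. Peaks with the TEAD core also lay near 5 of the 12. FOSB had the strongest AP-1 peak without TEAD core, at 327.6 in an ERCC1 intron (chr19:45455750-45456154), followed by FOSL1 at 160.2, BATF3 at 88.0, FOS at 63.4 and FOSL2 at 45.9. JUN, JUNB, JUND, ATF3, BATF, BATF2 and JDP2 had none. Of 20 genes known to respond to AP-1, 6 had an AP-1 peak without TEAD core, out of 16 with any peak. That share of 37.5% was near the 35.8% of all coding genes with any peak. Those with one included the hyaluronan receptor gene CD44 (227.8), the urokinase gene PLAU (190.9) and CXCL8, a neutrophil chemokine (150.0). MMP1, MMP9, IL6, CCND1 and HMOX1 were among those with peaks of other classes only, and MMP3 and MMP13 had no peak.

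Scar matrix genes had peaks of both kinds, with and without the TEAD core. Of 14 collagen genes 9 had one, out of 12 with any peak, led by COL1A1, a chain of fibrillar type I collagen, at 226.1 (chr17:50218770-50219059), where no peak within 50 kb was stronger. Peaks with the TEAD core lay within 50 kb of 8 of the 14 collagen genes and 10 of the 18 other matrix genes, against 23.3% of all coding genes. COL4A2 had an AP-1 peak without TEAD core at 143.2, COL12A1 at 110.9 and COL6A3 at 90.2. Of 18 other matrix genes 12 had one, out of 15 with any peak (80.0%). SPARC, a collagen-binding matricellular protein, had a value of 440.6 at its TSS, the collagen lysyl hydroxylase PLOD2 272.1, the cross-linking enzyme LOXL2 229.9 and the fibroblast protease FAP 141.0.

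YAP and TEAD target genes had such a peak at 13 of 24, out of 22 with any peak (59.1%, against 35.8% over all coding genes). More of the target genes, 17 of 24, had a peak with the TEAD core. CCN1, CCN2, ANKRD1, AMOTL2 and AJUBA were among those with peaks of other classes only. By strongest AP-1 peak without TEAD core, AXL was followed by CRIM1 at 371.4, GADD45A at 203.5 and FJX1 at 199.97. Of 11 Hippo and TEAD regulators 4 had one, out of 9 with any peak (44.4%, against 35.8% over all coding genes). They were YAP1, the coactivator itself, at 114.0, VGLL3 at 88.2, BNC2 at 61.8 and VGLL4, which competes with YAP for TEAD, at 59.7. Contractile genes were nearer the background, at 4 of 15, out of 13 with any peak. The share among genes with any peak was 30.8%, against 35.8% over all coding genes. Peaks with the TEAD core lay near 10 of the 15. The 4 were MYLK, the myosin light chain kinase, at 155.5, TPM1 at 88.2, LMOD1 at 83.1 and CALD1 at 33.0. ACTA2, TAGLN and MYL9 had only peaks with neither motif, and CNN1 had no peak.

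Adhesion and signalling genes also had peaks of both kinds. Peaks with the TEAD core lay near 11 of 18 integrin and focal adhesion genes, 12 of 16 TGF-beta pathway genes and 9 of 16 growth factor and receptor genes. Of the 18 integrin and focal adhesion genes 12 had an AP-1 peak without TEAD core, out of 17 with any peak (70.6%, against 35.8% over all coding genes). The integrin gene ITGB3 was at 422.9, the adaptor PXN at 129.6 and ITGB5 at 72.5. Of 16 TGF-beta pathway genes 8 had one, out of 15 with any peak (53.3%). The inhibitor SMAD7 was at 377.7, the co-receptor TGFBR3 at 247.7, the signal transducer SMAD3 at 147.4 and the ligand TGFB2 at 108.0. Of 16 growth factor and receptor genes, all with a peak of some class, 11 had one, with IGF1R at 348.0, the ligand PDGFC at 287.2, PDGFRB, a receptor that marks activated stellate cells, at 236.4, and TGFA at 168.7. None of 18 hepatocyte identity genes had one, and 2 of those 18 had a peak of any class.

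The genes with the most such peaks within 50 kb were PDE4D, a cAMP phosphodiesterase gene, and PLCB4, a phospholipase C gene, with 7 each. LPP, NRG1, PALM2AKAP2 and RAD51B had 6 each. Counting peaks of all classes, PDE4D had 23, PALM2AKAP2 22, PLCB4, LPP and RAD51B 17 each, and NRG1 16. The counts were not adjusted for gene length or number of TSSs.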

How the data were processed

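TEAD4 was measured by ChIP-seq in LX-2 cells, in 3 ChIP and 2 input samples. The authors mapped reads to hg38 with Chromap, compared replicates with the ENCODE IDR pipeline and deposited 1 peak list of replicates 1 and 3. Per peak, the authors' file gives a scaled IDR score, a signal value and a −log10 q-value. The peak caller is not given in the sources used here, and the depth per sample is unknown. Peaks were assigned to motif classes from hg38 sequence within 100 bp of the summit. Flanks were windows of the same length 2000 bp away. For the bases around AP-1 words they were wider windows beside all 21113 peaks. Genes and TSSs came from GENCODE release 44. The 20 comparisons used logistic regression with errors clustered by 1 Mb bin, Wald tests and Benjamini-Hochberg adjustment (statsmodels 0.14.6, Python 3.11.15), tested on simulated data. Shares carry 95% Wilson intervals, which cover counting error only. Regions were named by signal and by number of AP-1 words, and genes by their strongest peak, up to 4 per list, with every AP-1 subunit and the genes with the most peaks. The members and the 11 gene lists were chosen with earlier results of these data known. Alternatives were other windows, a 6-base core, overlapping peaks merged, the highest score only, GC content as a covariate, Fisher's exact test, autosomes, distal peaks and other cutoffs. A comparison with the study's list of genes losing H3K27ac was tried and is not reported: it was not in the design, its source table was shortened, and the name matching had been changed after the share of matched names was seen to be low. Some items that the naming rule would include are not reported here.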

Additional observations from a re-analysis of the deposited data

How the results depend on the processing

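Over 199 alternatives to the 20 odds ratios, 174 kept their direction and side of the threshold. A window of 50 bp gave 0.974 for TSS proximity, 1.41 for the E-box and 0.951 for a nearby TEAD-core peak against peaks with both motifs, each turned in direction, 0.827 (RUNX, lost) and 0.798 (nearby TEAD-core peak, now past the threshold) against the core alone, and 0.772 for GCTGAGTCA, lost. A window of 200 bp gave 0.542 (core alone) and 0.647 (both, turned) for a nearby TEAD-core peak and 1.23 for AP-1 near the summit, all 3 now past the threshold, and 0.809 for GCTGAGTCA, lost. A 6-base core gave, against both motifs, 0.962 (TSS, turned), 1.07 (E-box, turned), 1.42 (RUNX), 1.28 (2 or more AP-1) and 1.16 (AP-1 near the summit), these 3 now past the threshold, 0.849 (GCTGAGTCA, lost), and 0.926 for RUNX against the core alone, lost. Keeping 1 peak per overlapping group gave 1.05 (signal) and 0.904 (nearby TEAD-core peak) against neither motif, both lost. The highest score only gave 0.909 (one-mismatch word) and 0.759 (GCTGAGTCA), both lost. Distal peaks only gave E-box values of 1.12 (core alone) and 1.09 (neither), both lost. Leaving out words that overlap AP-1, added after the data were seen, gave E-box values of 0.998 (core alone, turned) and 1.01 (neither, lost). The cause of these shifts was not tested, except that the last follows from the overlap itself. No paired analysis was possible because the 1 combined list holds no value per replicate, and for the same reason no replicate could be left out. The test of repeats at the summit was not run, because the reference sequence is all in upper case.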
